A study of Homo sapiens with 12 samples.

Results

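The 10 genes described here belong to the BCL2 family, whose proteins decide at the mitochondrial outer membrane whether a stressed cell lives or dies. They are BCL2, BCL2L1, BCL2L2, MCL1, BCL2A1, BAK1, BCL2L11, BMF, BID and PMAIP1, chosen by name among 58037 gene identifiers after the Ensembl identifiers in the counts had been matched to symbols. RNA was sequenced from the human prostate cancer cell lines DU-145 and LNCaP-AI. By the study's legends, each carried a doxycycline (DOX)-inducible shRNA against MUC1 (tet-MUC1shRNA). In each line 3 samples were given vehicle and 3 were given 500 ng/ml DOX for 7 days, 12 samples in all. DU-145 is a line that grows without androgen. LNCaP-AI was derived by the study from C4-2B, itself a descendant of LNCaP, through long culture without androgen. The labels give phenol red-free medium with charcoal-stripped serum for both lines, whereas the study's methods give it for LNCaP-AI and medium with unstripped serum for DU-145. In the labels the groups are shCTL and shMUC1. The study's legends give them as tet-MUC1shRNA cells without and with DOX, and vehicle and DOX are the names used here. By the legends, every group carries the inducible hairpin. The study's text, however, names DU-145 cells with either a control or a MUC1 hairpin for its expression analysis, so the DU-145 control is not settled. The hairpin has a single target sequence. On the reading of the legends, no DOX-treated cells with a control hairpin enter these comparisons. DOX and the hairpin then cannot be told apart as sources of a difference. The labels say that cells were cultured in triplicate but not whether on separate occasions, so the p-values measure the spread between these samples only.

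The family works by binding between its members. The survival proteins BCL2, BCL-XL (gene BCL2L1), BCL-W (BCL2L2), MCL1 and A1, also called BFL1 (BCL2A1), hold the killing members in check. BAK (BAK1) and BAX are the effectors that permeabilize the outer membrane and release cytochrome c, which starts the caspases. The BH3-only proteins BIM (BCL2L11), BMF, BID and NOXA (PMAIP1) sense stress and either occupy the survival proteins or activate the effectors. BIM binds all survival proteins, NOXA binds mainly MCL1 and A1, and BID links death receptors to mitochondria after its cleavage by caspase-8. Much of this control acts on the proteins, through cleavage, phosphorylation and turnover, and is not seen in RNA. Splice forms with opposed actions, such as those of BCL2L1, MCL1 and BCL2L11, are also not separated by counts per gene.

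Total counts per sample were 10423437 to 13544153 in DU-145 cells and 16569613 to 26961777 in LNCaP-AI cells. MUC1, the targeted gene, had 74, 60 and 59 counts in the DU-145 vehicle samples and 3 in each DOX sample, and 36, 25 and 52 against 8, 6 and 3 counts in LNCaP-AI cells. On 8 markers of luminal prostate cells, DU-145 samples had a summed level of 40.7 to 54.6 CPM (counts relative to library size, TMM-normalized), with KLK3, KLK2, FOLH1 and HOXB13 at 0 counts in all 6 samples. LNCaP-AI samples had 2620 to 5650 CPM with all 8 markers present. Of these 8 luminal markers, 4 were called higher with DOX in LNCaP-AI cells, beside 7.22% of all tested genes. All 4 epithelial markers examined (EPCAM, KRT8, KRT18 and CDH1) were called higher with DOX in DU-145 cells, beside 26.3% of all tested genes. Summed levels of PTPRC, PECAM1, COL1A1 and DCN, markers of other cell types, were 2.05 to 4.26 CPM in DU-145 and 18.1 to 26.2 CPM in LNCaP-AI samples, most of it COL1A1.

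Treatment was not the main division among the LNCaP-AI samples. The leading principal component (82.5% of the variance) grouped vehicle 1 with DOX 2 and DOX 3, and it grouped DOX 1 with vehicle 2 and 3. PEG10 showed the division, with 40, 3663 and 5266 counts in vehicle samples 1 to 3 and 4060, 16 and 13 in DOX samples 1 to 3. CD44, by its count of 0 in vehicle 1 against 1483 and 2405 in vehicle 2 and 3, and 1706 against 1 and 3 in the DOX samples, followed the same pattern. CAV1 did too, with 6, 1617 and 2412 counts in vehicle samples and 1845, 2 and 1 in DOX samples. The summed level of VIM, CD44 and CAV1 was 27.3 to 56.9 CPM on the side of vehicle 1 and 193 to 198 CPM on the other. VIM itself followed treatment and not the division, at 28.2 ± 1.88 CPM with vehicle and 54.9 ± 2.43 with DOX (SD, n = 3). Its log2 fold change was 0.93 (adjusted p = 0.0123, edgeR). Of the 4 markers of other cell types, PECAM1 followed the division, with 0, 36 and 72 counts in vehicle and 62, 0 and 1 in DOX samples. DCN did too, with 0, 20 and 20 against 18, 2 and 2 counts. COL1A1, the most abundant of them, did not, at 18.1, 16.5 and 23.0 CPM with vehicle and 20.8, 20.6 and 18.7 with DOX. PTPRC had 0 to 2 counts. For this reason the LNCaP-AI results of the tested members are given with the difference inside each side, first that of vehicle 1. Several are also given with a fit that has the side as a covariate, a side read from the same counts. Interaction values, most ratios and some values of other genes are given without either. A fit without DOX 1 keeps DOX samples from the side of vehicle 1 only, so treatment and side are partly mixed in it. In bulk RNA, fewer cells with a transcript and less of it per cell cannot be told apart.

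The promoter sequences of 3 members are shown because the results turn on them: BCL2A1 had the largest DOX difference of the 10 genes in DU-145 cells, BMF was the member called in LNCaP-AI cells, and PMAIP1 passed the test in DU-145 cells while its log2 fold change in LNCaP-AI cells was negative and not called. Each run holds the 250 bases before the RefSeq start site (GRCh38.p14), read 5′ to 3′ on the strand of the gene. Capitals mark matches on either strand to any of 4 motifs, none of which contains another. They are the box for the TATA-binding protein, spelled TATAAA, the site known as a GC box, spelled GGGCGG, the core of a cyclic AMP response element, spelled TGACG, and the E-box, spelled CACGTG. The windows are chr15:79971197-79971446 (minus strand) for BCL2A1, chr15:40108880-40109129 (minus strand, the upstream window of 2) for BMF and chr18:59899746-59899995 (plus strand) for PMAIP1.
BCL2A1: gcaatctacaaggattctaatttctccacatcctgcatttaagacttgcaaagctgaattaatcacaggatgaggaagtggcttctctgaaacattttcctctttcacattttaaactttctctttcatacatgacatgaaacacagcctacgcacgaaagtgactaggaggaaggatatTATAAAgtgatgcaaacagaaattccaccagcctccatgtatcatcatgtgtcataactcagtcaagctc
BMF: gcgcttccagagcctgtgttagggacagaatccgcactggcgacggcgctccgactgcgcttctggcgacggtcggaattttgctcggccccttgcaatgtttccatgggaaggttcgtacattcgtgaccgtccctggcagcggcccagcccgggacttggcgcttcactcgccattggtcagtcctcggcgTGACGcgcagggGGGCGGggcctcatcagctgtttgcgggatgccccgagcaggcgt
PMAIP1: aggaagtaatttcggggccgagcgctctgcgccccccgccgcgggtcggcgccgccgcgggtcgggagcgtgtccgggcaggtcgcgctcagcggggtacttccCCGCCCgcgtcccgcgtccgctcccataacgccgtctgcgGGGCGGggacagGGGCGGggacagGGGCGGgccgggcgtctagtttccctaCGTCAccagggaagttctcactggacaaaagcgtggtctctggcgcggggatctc
The BCL2A1 window is rich in A and T (38.8% G or C, against a median of 58% over 35116 windows) and holds a TATAAA match, a motif found in 10.7% of all windows. The PMAIP1 window is 72.8% G or C and holds 4 GGGCGG matches and a TGACG match, and the BMF window is 65.2% G or C with a match to each. GGGCGG occurred in 42.6% of all windows, TGACG in 21.2% and CACGTG in 6.34%, the last with no match in these 3. A match is a run of letters and was not tested for binding of any factor.

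At baseline, in vehicle samples, MCL1 was the most abundant member in both lines when levels were set per kilobase of exon. It stood at 122 ± 16 CPM per kilobase (SD, n = 3) in DU-145 and 55.1 ± 8.63 (SD, n = 3) in LNCaP-AI cells. BCL2L1 followed in both, at 36.4 ± 1.61 and 18.4 ± 3.75 CPM per kilobase (SD, n = 3). In DU-145 cells the further order was BID (18.3 CPM per kilobase), PMAIP1 (11.7), BAK1 (5.77), BCL2L2 (3.50), BCL2L11 (2.88), BCL2A1 (1.27), BMF (0.586) and BCL2 (0.234), with no overlap between the samples of any neighbours in that order. In LNCaP-AI cells BCL2L2 (7.11 CPM per kilobase), BID (6.90), BAK1 (6.58), BCL2L11 (6.0) and PMAIP1 (4.89) formed a stretch in which each overlapped its neighbour, followed apart from them by BMF (1.02) and BCL2 (0.566). BCL2A1 came last there with 0 counts in all vehicle samples. Of the summed per-kilobase level of the 5 survival genes, MCL1 held 74.5% ± 2.94 and BCL2L1 22.4% ± 2.58 (SD, n = 3) in DU-145 vehicle samples, and 67.8% ± 2.00 and 22.6% ± 1.88 (SD, n = 3) in LNCaP-AI. The share of BCL2L2 was 2.15% ± 0.203 in the former and 8.88% ± 1.25 in the latter (SD, n = 3). These levels rest on the exon length of all annotated transcripts together, so a gene expressed mainly from a short transcript is understated.

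**Figure D1:**
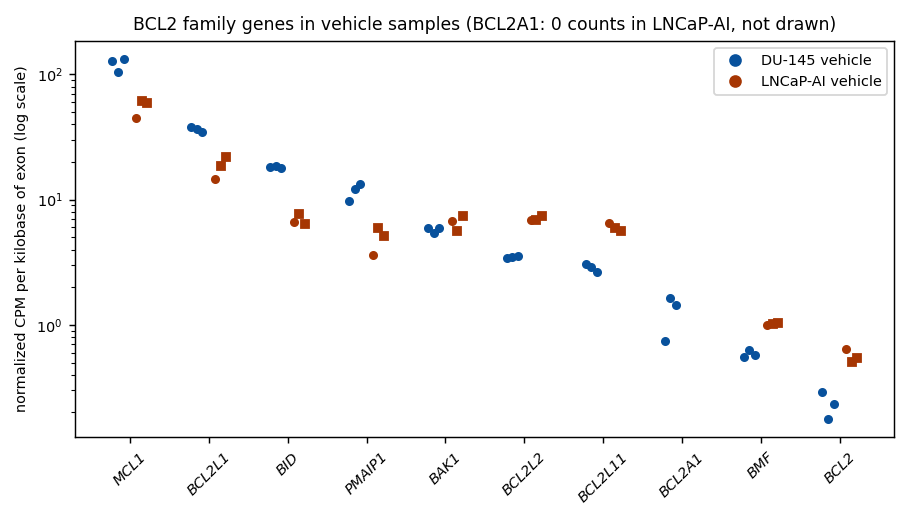
Level of each member in the vehicle samples of DU-145 (blue) and LNCaP-AI (orange) cells, as normalized CPM per kilobase of exon on a log axis, 1 point per sample; squares mark LNCaP-AI vehicle 2 and 3. MCL1 was highest and BCL2L1 next in both lines, and BCL2A1 had 0 counts in LNCaP-AI samples and is not drawn for them.

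The baseline comparison asked how the lines differed before MUC1 was silenced. Of the 9 members with enough counts to be tested, 4 were higher in LNCaP-AI than in DU-145 cells (BCL2, BCL2L2, BCL2L11 and BMF), 4 were lower (BCL2L1, MCL1, BID and PMAIP1), and BAK1 was not called. The lines differed widely: 65.1% of all tested genes were called, 35.0% higher and 30.2% lower, so a call on 8 of 9 members is read against that background. The groups of these 8 members did not overlap, as held for 73.3% of tested genes. Among the survival genes, BCL2 had 3.69, 2.23 and 2.94 CPM in DU-145 samples and 8.08, 6.42 and 6.91 in LNCaP-AI samples. All LNCaP-AI samples were above all DU-145 samples, with a log2 difference of 1.23 (SE 0.231, adjusted p = 0.00264, edgeR). BCL2L2 was at 16.6, 16.8 and 17.3 CPM in DU-145 against 33.6, 33.5 and 36.1 in LNCaP-AI samples, a log2 difference of 0.99 (SE 0.0981, adjusted p = 0.00013, edgeR). MCL1, which protects many tumour cells and is a short-lived protein, went the other way, from 802, 645 and 830 CPM in DU-145 to 281, 380 and 368 in LNCaP-AI samples (log2 difference -1.19, SE 0.152, adjusted p = 0.000423, edgeR). BCL2L1 was likewise lower, at 159, 154 and 146 CPM against 61.1, 78.1 and 92.6 (log2 difference -1.02, SE 0.152, adjusted p = 0.000878, edgeR).

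BCL2A1, which was close to the floor of detection at baseline, had too few counts for the edgeR test between the lines. DESeq2, which keeps such genes, called it lower in LNCaP-AI cells (adjusted p = 9.308e-07). It had 9, 16 and 17 counts in DU-145 vehicle samples and 0 in every LNCaP-AI vehicle sample. The mean DU-145 level of 1.26 CPM was 9.50-fold the mean LNCaP-AI floor of 0.133 CPM, set at 3 counts per library. The floor covers counting error only, and the ratio leaves out the spread and counting error of the DU-145 samples.

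The BH3-only genes also split at baseline. BCL2L11 was at 20.7, 19.7 and 17.9 CPM in DU-145 and 43.6, 39.9 and 37.9 in LNCaP-AI samples (log2 difference 1.02, SE 0.108, adjusted p = 0.000168, edgeR). BMF, whose protein is held at the cytoskeleton until it is freed, was at 3.03, 3.44 and 3.11 CPM against 5.44, 5.56 and 5.66 (log2 difference 0.76, SE 0.172, adjusted p = 0.00622, edgeR). Both were higher in every LNCaP-AI sample. BID was at 80.5, 82.4 and 79.9 CPM in DU-145 against 29.1, 33.9 and 28.4 in LNCaP-AI samples (log2 difference -1.45, SE 0.1, adjusted p = 3e-05, edgeR). PMAIP1 was at 21.2, 26.6 and 29.1 CPM against 7.85, 13.0 and 11.2 (log2 difference -1.30, SE 0.217, adjusted p = 0.0015, edgeR). BAK1 was at 13.1, 12 and 13.1 CPM against 14.8, 12.4 and 16.5, with overlap between the lines (log2 difference 0.16, 95% interval -0.20 to 0.51, adjusted p = 0.395, edgeR). With LNCaP-AI vehicle 2 and 3 left out, a setting added after the data were seen, 8 members and 9615 of 13359 genes were called; the line then has 1 sample, assumed to vary like the DU-145 samples.

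In DU-145 cells, 4 of 10 members were higher with DOX: BCL2A1, BAK1, PMAIP1 and BCL2L1. The number lower was 0 by edgeR, 0 at an unadjusted p under 0.05 and 0 by DESeq2. The background was high, since 51.5% of the 13644 tested genes were called and 26.3% were called higher, and the share of members called lies near it. Groups did not overlap for 5 of the 10 members, against 57.3% of tested genes. The median log2 fold change of the members was 0.06, against 0.00 over all tested genes.

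BCL2A1, a survival gene best known as an NF-κB target in blood cells, had by far the largest difference among the members. It was at 0.738, 1.62 and 1.43 CPM with vehicle and at 9.63, 9.69 and 8.96 CPM with DOX in DU-145 cells, from 9, 16 and 17 to 102, 123 and 101 counts. The DOX samples lay close together and far above all vehicle samples. The log2 fold change was 2.92 (SE 0.222, 7.59-fold, adjusted p = 2.84e-09, edgeR), and it stayed between 2.61 and 3.12 in all 12 alternatives. Its share of the summed per-kilobase level of the 5 survival genes went from 0.793% ± 0.343 in vehicle samples to 5.60% ± 0.0716 in DOX samples (SD, n = 3 each). The per-kilobase level of BCL2A1 thus moved from the eighth to the fifth of the 10 members, where it overlapped with BAK1.

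Of the other survival genes in DU-145 cells, BCL2L1 rose slightly, from 159, 154 and 146 CPM to 172, 179 and 167 CPM. The groups did not overlap (log2 fold change 0.18, SE 0.0659, adjusted p = 0.0264, edgeR). The call was lost without vehicle 1 (adjusted p = 0.0526), without vehicle 3 (0.134), without DOX 2 (0.09), without a filter on low counts (0.0636) and in a fit of all 12 samples (0.41). MCL1 was at 802, 645 and 830 CPM with vehicle and 723, 746 and 682 with DOX, with the DOX samples inside the vehicle range (log2 fold change -0.08, 95% interval -0.26 to 0.10, adjusted p = 0.483, edgeR). BCL2L2 was at 16.6, 16.8 and 17.3 against 16.4, 16.7 and 13.3 CPM and overlapped (log2 fold change -0.12, 95% interval -0.36 to 0.11, adjusted p = 0.388, edgeR). BCL2 itself had few reads, 45, 22 and 35 counts with vehicle and 25, 21 and 26 with DOX. Its CPM values overlapped between the groups (log2 fold change -0.51, 95% interval -1.05 to 0.03, adjusted p = 0.109, edgeR). Without vehicle 2 both BCL2 (log2 fold change -0.66, adjusted p = 0.0426) and MCL1 (-0.18, adjusted p = 0.0349) were called lower in edgeR.

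Among the killing genes of DU-145 cells, BAK1 was at 13.1, 12 and 13.1 CPM with vehicle and 15.3, 20.0 and 20.7 with DOX. All DOX samples were higher, with DOX 1 nearest to the vehicle samples (log2 fold change 0.56, SE 0.123, adjusted p = 0.000888, edgeR). BAK1 was called in all 12 alternatives. PMAIP1 was at 21.2, 26.6 and 29.1 CPM with vehicle and 32.7, 31.8 and 30.7 with DOX, again without overlap (log2 fold change 0.32, SE 0.105, adjusted p = 0.0168, edgeR). This call was lost without vehicle 1, the lowest sample (log2 fold change 0.17, adjusted p = 0.188), without DOX 1 (0.30, adjusted p = 0.0646) and in a fit of all 12 samples (0.31, adjusted p = 0.542). BCL2L11 was at 20.7, 19.7 and 17.9 CPM against 17.1, 16.8 and 17.6 CPM, with all DOX values below the vehicle range, and did not pass the test (log2 fold change -0.17, 95% interval -0.39 to 0.04, adjusted p = 0.161, edgeR). BMF had a log2 fold change of 0.03 (95% interval -0.40 to 0.46, adjusted p = 0.914) and BID of 0.08 (95% interval -0.08 to 0.24, adjusted p = 0.386), and both overlapped between the groups.

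**Figure D2:**
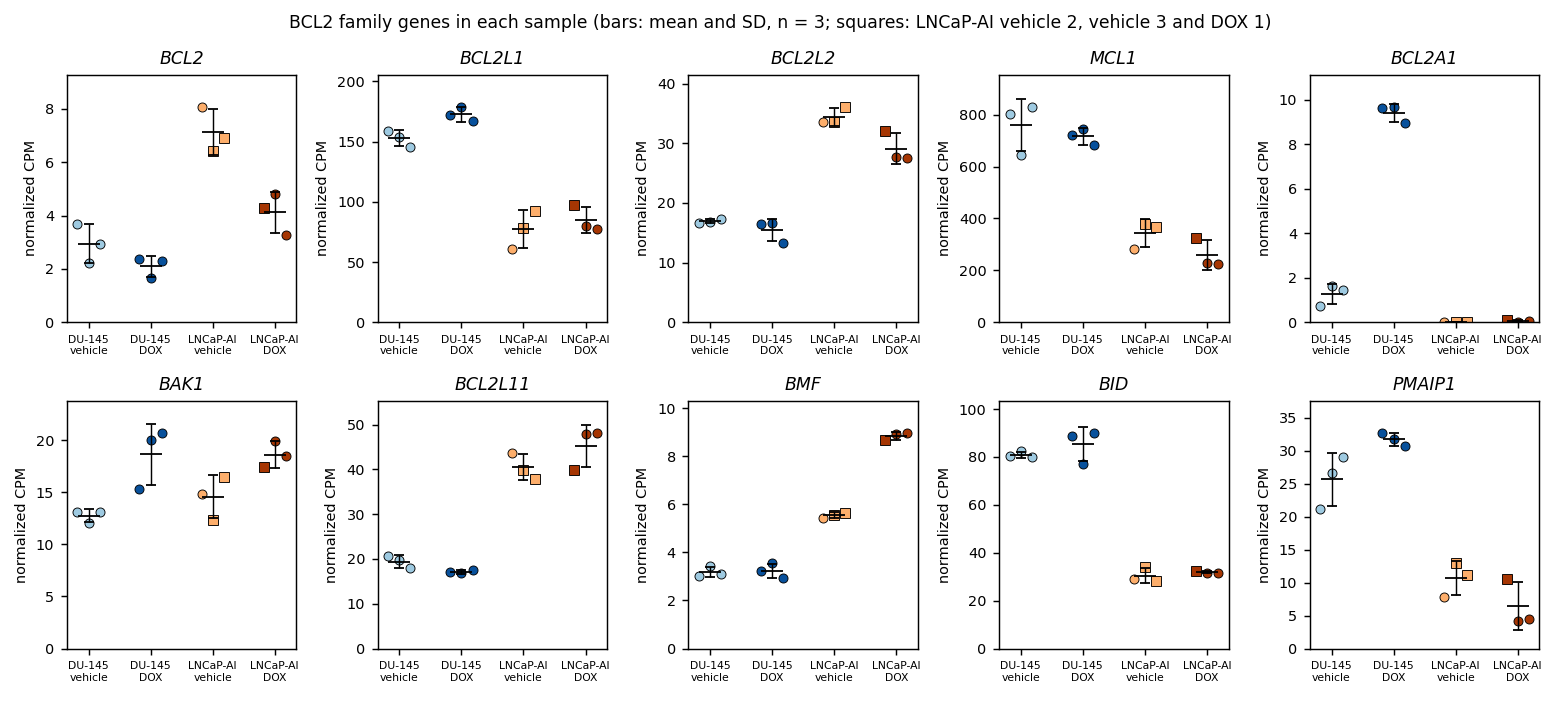
Normalized CPM of the 10 members in each of the 12 samples, with the vertical axis starting at 0 in every panel; points are samples, bars give the mean and SD of 3, and squares mark LNCaP-AI vehicle 2, vehicle 3 and DOX 1. BCL2A1 stood apart in DU-145 DOX samples (8.96 to 9.69 CPM) and BMF in LNCaP-AI DOX samples (8.68 to 8.97 CPM), while PMAIP1 in LNCaP-AI cells was spread along the division between squares and circles.

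In LNCaP-AI cells, 1 of the 9 tested members, BMF, was higher with DOX. The number lower was 0 by edgeR, 2 at an unadjusted p under 0.05 (BCL2 and BCL2L2) and 1 by DESeq2 (BCL2). The edgeR background was 12.7% of 16030 tested genes called and 7.22% called higher. Groups did not overlap for 4 of the 9 members (BCL2, BCL2L2, BAK1 and BMF), against 38.1% of tested genes. The median log2 fold change was 0.04 over the members and -0.05 over all tested genes. With the side of the division as a covariate, edgeR called 6 of the 9 members and 6271 of the 16030 genes. BMF and BCL2L1 were then higher, and BCL2, BCL2L2, MCL1 and PMAIP1 lower.

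BMF was at 5.44, 5.56 and 5.66 CPM with vehicle and 8.68, 8.91 and 8.97 CPM with DOX. The values within each group lay close together across both sides of the division (log2 fold change 0.64, SE 0.121, 1.56-fold, adjusted p = 0.0255, edgeR). The log2 difference was 0.66 on the side of vehicle 1 and 0.61 on the side of vehicle 2 and 3. It kept its size without any single sample (0.63 to 0.69), but the adjusted p went over the threshold without vehicle 2 (0.0642), vehicle 3 (0.066), DOX 2 (0.131) or DOX 3 (0.126), without a filter on low counts (0.12) and in the fit blocked on replicate number (0.219). Few genes were called at all when DOX 2 or DOX 3 was removed (1 of 15807 without DOX 2 and 1 of 15816 without DOX 3).

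BCL2, the founding survival gene, was at 8.08, 6.42 and 6.91 CPM with vehicle and 4.28, 4.8 and 3.27 CPM with DOX in LNCaP-AI cells. The highest DOX sample lay below the lowest vehicle sample, and the adjusted p lay just over the threshold (log2 fold change -0.82, SE 0.205, adjusted p = 0.0512, edgeR). The log2 difference was -1.06 on the side of vehicle 1 and -0.64 on the other side. It was called in 5 of 13 alternatives, among them DESeq2 (log2 fold change -0.82, adjusted p = 0.00748) and without DOX 1 (-0.81, adjusted p = 0.0463). With the side as a covariate its adjusted p was 0.000183.

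The other survival genes of LNCaP-AI cells did not pass the test without the covariate. BCL2L2 was at 33.6, 33.5 and 36.1 CPM with vehicle and 32.1, 27.8 and 27.5 with DOX, all lower (log2 fold change -0.27, 95% interval -0.50 to -0.03, adjusted p = 0.12, edgeR; -0.33 and -0.13 within the sides). With the covariate it was -0.23 (adjusted p = 0.048, edgeR). MCL1 was at 281, 380 and 368 CPM with vehicle and 326, 228 and 226 with DOX, where the samples on the side of vehicle 2 were the higher ones in each group. Its log2 fold change was -0.42 (95% interval -0.88 to 0.03, adjusted p = 0.185, edgeR), with -0.36 and -0.21 within the sides, and it was called lower without DOX 1 (-0.59, adjusted p = 0.0454) and with the covariate (-0.28, adjusted p = 0.0113). BCL2L1 was at 61.1, 78.1 and 92.6 CPM against 97.2, 79.8 and 77.6 CPM (log2 fold change 0.11, 95% interval -0.30 to 0.52, adjusted p = 0.692, edgeR), and within the sides it was 0.31 and 0.18. With the covariate it was 0.24 (adjusted p = 0.0346, edgeR). BCL2A1, so high with DOX in DU-145 cells, had 0 counts in each vehicle sample and 2, 0 and 1 counts in the DOX samples, all at or under the floor of 3 counts, and no fold is given.

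Among the other killing genes of LNCaP-AI cells, BAK1 was at 14.8, 12.4 and 16.5 CPM with vehicle and 17.4, 19.9 and 18.5 with DOX. All DOX samples were higher, though it was not called (log2 fold change 0.33, 95% interval -0.02 to 0.68, adjusted p = 0.186, edgeR; 0.32 and 0.27 within the sides). PMAIP1 was at 7.85, 13.0 and 11.2 CPM with vehicle and 10.6, 4.23 and 4.46 with DOX, so that DOX 1 lay among the vehicle samples. Its log2 fold change was -0.75 (95% interval -1.75 to 0.25, adjusted p = 0.271, edgeR), with -0.89 on the side of vehicle 1 and -0.20 on the other. It was called lower without DOX 1 (log2 fold change -1.30, adjusted p = 0.0196, edgeR) and with the covariate (-0.49, adjusted p = 0.0107, edgeR). In the fit without DOX 1, treatment and side are partly mixed, which also holds for the values of MCL1 and BCL2 from that fit. BCL2L11 had a log2 fold change of 0.14 (95% interval -0.14 to 0.41, adjusted p = 0.476; 0.09 and 0.02 within the sides) and BID of 0.04 (95% interval -0.20 to 0.27, adjusted p = 0.811; 0.06 and 0.05 within the sides), and both overlapped between the groups.

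**Figure D3:**
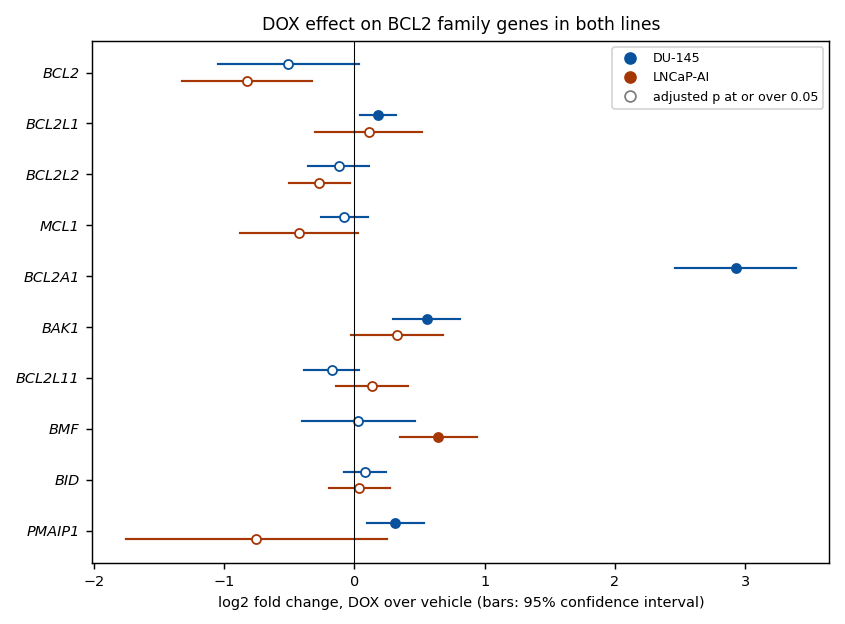
Log2 fold change of DOX over vehicle for each member in DU-145 (blue) and LNCaP-AI (orange) cells, with bars for the 95% confidence interval and filled points for an adjusted p under 0.05 (edgeR); BCL2A1 has no LNCaP-AI value. BCL2A1 at 2.92 in DU-145 cells was the largest value, BMF was filled in LNCaP-AI cells (0.64), and the PMAIP1 interval in LNCaP-AI cells ran from -1.75 to 0.25.

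Whether DOX acted differently on a member in the 2 lines was tested directly as an interaction over all samples. Of the 9 members tested, 0 were called by edgeR and 0 by DESeq2, while edgeR called 9.18% of the 16800 tested genes. At an unadjusted p under 0.05, 3 members stood out: BMF, whose DOX effect was higher in LNCaP-AI cells by 0.65 (SE 0.185, adjusted p = 0.0516, edgeR), BCL2L11 by 0.34 (SE 0.136, adjusted p = 0.141, edgeR), and PMAIP1, lower by -1.03 (SE 0.446, adjusted p = 0.177, edgeR). Without LNCaP-AI DOX 1 all 3 were called, at 0.66 (adjusted p = 0.0488), 0.43 (adjusted p = 0.0391) and -1.60 (adjusted p = 0.00352). The LNCaP-AI DOX samples left in that fit are all on the side of vehicle 1, so treatment and side are partly mixed in these values. No interaction value is given for BCL2A1, since its LNCaP-AI counts were at the floor. For the other 6 members the difference of the log2 fold changes lay between -0.31 and -0.01, with the widest 95% interval for BCL2 (-1.04 to 0.435). BID and BCL2L1, at -0.01 and -0.04, changed sign between settings.

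Ratios of partner genes were followed within each sample, as log2 ratios of counts, and are described without a test. BAK1 to MCL1 was higher with DOX in both lines. It went from -5.88 ± 0.128 to -5.27 ± 0.263 for DU-145 and from -4.55 ± 0.353 to -3.78 ± 0.388 for LNCaP-AI (SD, n = 3), though LNCaP-AI DOX 1 at -4.23 lay just above the highest vehicle sample at -4.24. BCL2 to BCL2L1 was lower with DOX in every sample of both lines, from -5.70 ± 0.341 to -6.35 ± 0.328 and from -3.42 ± 0.44 to -4.37 ± 0.279 (SD, n = 3). BCL2L1 to MCL1 was higher with DOX, from -2.30 ± 0.221 to -2.05 ± 0.021 in DU-145 and from -2.16 ± 0.151 to -1.60 ± 0.127 in LNCaP-AI cells (SD, n = 3). These 3 ratios were without overlap between the treatments in each line. The exception was BCL2L1 to MCL1 in DU-145, where the lowest DOX sample met the highest vehicle sample at -2.07. Groups of single tested genes did not overlap for 57.3% in DU-145 and 38.1% in LNCaP-AI cells, and no such share was computed for ratios. The LNCaP-AI means mix the sides: BAK1 to MCL1 went from -4.24 to -3.51 and -3.61 on the side of vehicle 1. On the other side it went from -4.94 and -4.48 to -4.23. PMAIP1 to MCL1, a BH3-only gene over its main partner, went from -4.89 ± 0.324 to -4.50 ± 0.047 in DU-145 cells and from -5.02 ± 0.147 to -5.45 ± 0.44 in LNCaP-AI cells (SD, n = 3), with the LNCaP-AI DOX samples split as the PMAIP1 values were. BMF to BCL2L1 went from -3.77 ± 0.273 to -3.25 ± 0.203 in LNCaP-AI cells and for DU-145 from -5.56 ± 0.119 to -5.73 ± 0.085 (SD, n = 3). BCL2L11 to BCL2L1 was lower with DOX in DU-145 cells without overlap, from -2.98 ± 0.043 to -3.33 ± 0.083 (SD, n = 3), and was -0.92 ± 0.403 and -0.90 ± 0.33 in LNCaP-AI cells (SD, n = 3). BCL2L11 to MCL1 and BID to BCL2L1 overlapped between treatments in both lines.

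**Figure D4:**
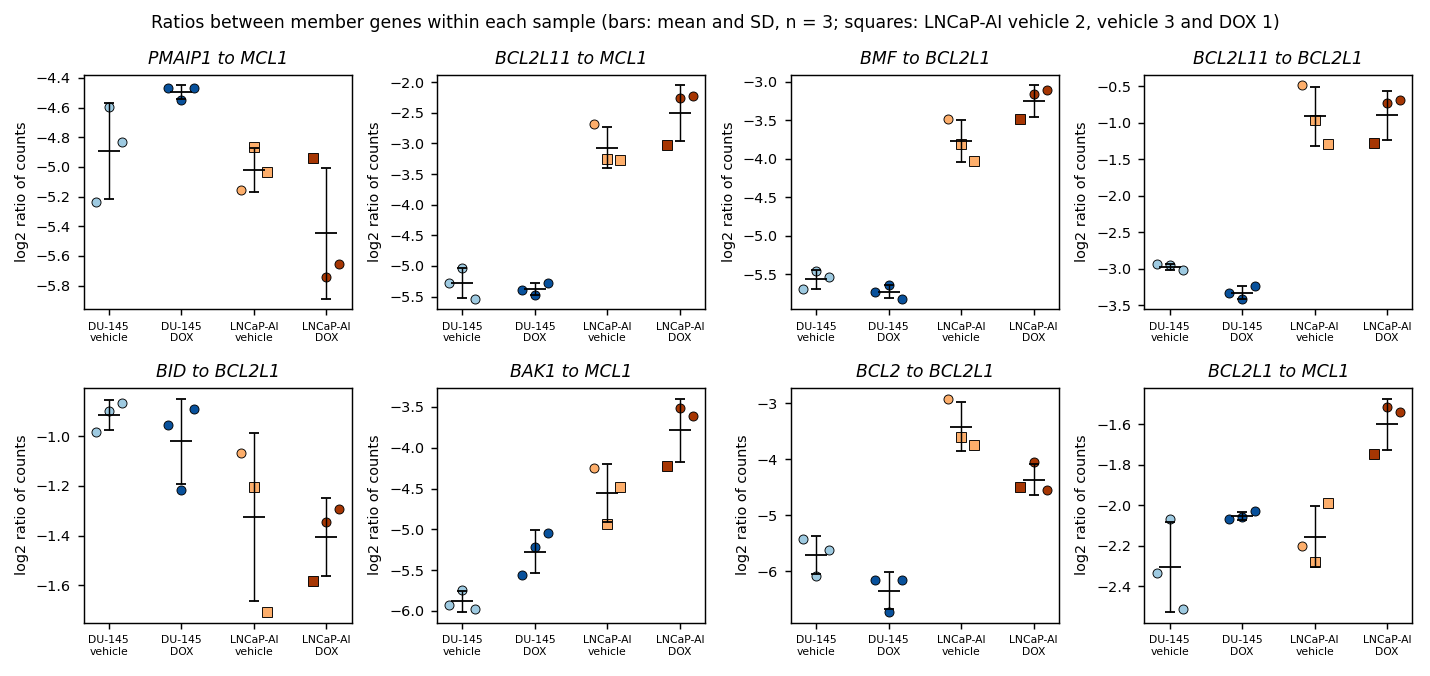
Log2 ratio of counts between 8 pairs of members in each sample; bars give the mean and SD of 3 samples, and squares mark LNCaP-AI vehicle 2, vehicle 3 and DOX 1. BAK1 to MCL1 was higher and BCL2 to BCL2L1 lower with DOX in both lines, and PMAIP1 to MCL1 had 2 of 3 LNCaP-AI DOX samples below all vehicle samples.

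Other BCL2 family genes were described from a list of 13. In DU-145 cells 9 were tested, with 3 higher and 1 lower (median log2 fold change 0.11), beside 51.5% of all tested genes called. BIK, a BH3-only gene of the endoplasmic reticulum, rose by 1.12 (SE 0.23, adjusted p = 0.000442), BAD, a BH3-only gene controlled by survival kinases, by 0.51 (adjusted p = 0.00101), and BNIP3L, which serves mitophagy, by 0.31 (adjusted p = 0.0114). BNIP3, a hypoxia-induced relative of BNIP3L, fell (log2 fold change -0.28, adjusted p = 0.00188). BAX (0.03), BOK (0.11), BBC3 (0.38), BCL2L12 (0.02) and BCL2L13 (-0.10) did not pass the test in DU-145 cells. In LNCaP-AI cells 10 were tested, of which edgeR called BIK and DESeq2 called 4 (BIK, BBC3, BNIP3 and BNIP3L), all higher. Over all tested genes edgeR called 12.7% in this line, a share that is no background for the DESeq2 count. Groups did not overlap for 6 of the 10, against 38.1% of all tested genes. BIK went from 5.94, 5.4 and 5.87 CPM to 9.98, 8.91 and 11.6 CPM (log2 fold change 0.80, SE 0.153, adjusted p = 0.0265, edgeR; 0.72 and 0.80 within the sides). BBC3, which encodes the BH3-only protein PUMA, had 1.74, 3.42 and 2.88 CPM with vehicle and 6.64, 6.4 and 4.68 with DOX in LNCaP-AI cells, all higher, and lay just over the threshold in edgeR (log2 fold change 1.12, adjusted p = 0.057; 1.55 and 1.04 within the sides) and under it in DESeq2 (adjusted p = 0.00587). BAX (0.41), BAD (0.31), BNIP3 (0.62) and BNIP3L (0.46) were higher in every LNCaP-AI DOX sample without passing the edgeR test, whereas DESeq2 called BNIP3 (adjusted p = 0.00665) and BNIP3L (0.0175). Within the sides BNIP3 was at 0.43 and 0.58 and BNIP3L at 0.32 and 0.40, while BOK (0.30), HRK (-1.22), BCL2L12 (-0.23) and BCL2L13 (-0.01) overlapped. HRK followed the division of the samples, with 9, 83 and 117 counts with vehicle and 75, 2 and 11 with DOX. At baseline, where 65.1% of all tested genes were called, 9 of the list were tested. BOK (0.86) and BIK (1.47) were higher in LNCaP-AI cells, and BCL2L13 (-1.24), BNIP3 (-1.21) and BNIP3L (-1.68) were lower. BAX (0.06), BAD (-0.19), BBC3 (0.72) and BCL2L12 (-0.01) were not called.

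The death receptor arm, which reaches the family through BID, had 10 tested genes. DOX samples of DU-145 had 5 of them higher and 1 lower (median log2 fold change 0.26), beside 51.5% of all tested genes called, a background that also stands behind the DU-145 counts of the next lists. They were led by TNFRSF10A (1.18, adjusted p = 3.17e-10) and TNFRSF10B (0.45, adjusted p = 1.76e-05), the receptors for TRAIL, and FAS (0.63, adjusted p = 0.00138). TNFRSF1A was the gene called lower (-0.17, adjusted p = 0.0385). In LNCaP-AI cells TNFRSF10A (0.47, adjusted p = 0.0171) and TNFRSF10B (0.58, adjusted p = 0.018; 0.48 and 0.58 within the sides) were called higher, and the number lower was 0 by edgeR, 0 at an unadjusted p under 0.05 and 0 by DESeq2. Over all tested genes, edgeR called 12.7% in LNCaP-AI cells, which is also the background for the edgeR counts of the next lists in that line. No such share is given for DESeq2. Both receptors were higher in every DOX sample of both lines. Groups did not overlap for 57.3% of all tested genes in DU-145 and 38.1% in LNCaP-AI cells. TNFRSF10A was at 41.4, 42.8 and 44 CPM with vehicle and 62.1, 59.4 and 59.2 with DOX in LNCaP-AI cells. Its log2 difference was 0.47 on the side of vehicle 1 and 0.50 on the other.

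Of 16 genes that act at or after the mitochondrial step, DU-145 cells had 4 higher and 5 lower with DOX (median log2 fold change 0.11). BIRC6 (0.41, adjusted p = 6.01e-05), CASP9, the initiator caspase of this route (0.71, adjusted p = 6.81e-05), and DIABLO (0.60, adjusted p = 0.00713) led those that were higher. CYCS, which encodes cytochrome c (-0.78, adjusted p = 4.33e-06), BIRC2 (-0.30, adjusted p = 0.00208) and BIRC5, or survivin (-0.28, adjusted p = 0.00216), led those that were lower. In LNCaP-AI cells edgeR called BIRC5 lower (-1.04, adjusted p = 0.0148; -1.24 and -0.73 within the sides), with a median of -0.14 over the list, and DESeq2 called BIRC5 and CYCS lower (CYCS -0.62, adjusted p = 0.0146). Of 10 genes that control the members at the level of transcription, binding or protein turnover, DU-145 cells had 4 higher and 3 lower (median log2 fold change -0.01). HUWE1, a ubiquitin ligase for MCL1 (0.58, adjusted p = 1.8e-06), FOXO3, a transcription factor for BCL2L11 (0.42, adjusted p = 0.0016), and DYNLL2, to which BMF binds (0.22, adjusted p = 0.0115), were the highest ranked of those higher, and YWHAZ (-0.40, adjusted p = 0.000294) and PIM1 (-0.34, adjusted p = 0.00449) were among those lower. Among LNCaP-AI samples 0 of the 10 were called by edgeR (median -0.15), 2 were lower at an unadjusted p under 0.05, and DESeq2 called 1 lower.

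**Figure D5:**
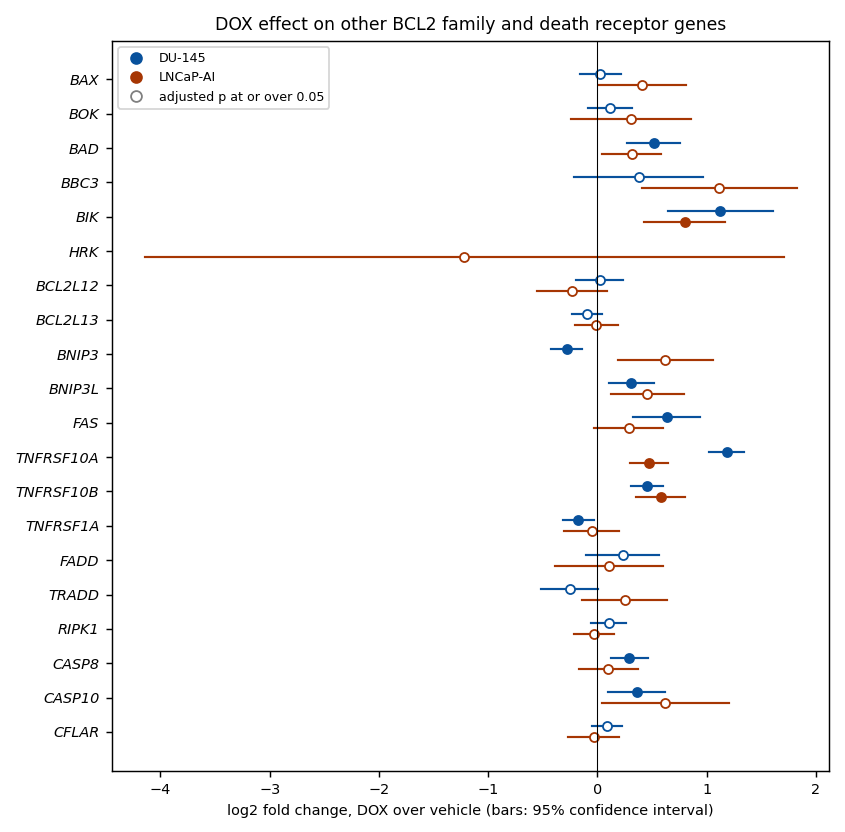
Log2 fold change of DOX over vehicle for the tested genes of the other BCL2 family and death receptor lists in DU-145 (blue) and LNCaP-AI (orange) cells, with 95% confidence intervals and filled points for an adjusted p under 0.05 (edgeR). TNFRSF10A, TNFRSF10B and BIK were filled in both lines, and HRK in LNCaP-AI cells had by far the widest interval.

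Over all 12 samples, the log2 CPM pattern of BCL2A1 was most like that of PFDN1 (Pearson r = 0.993), ABHD3 (0.993) and FAUP4 (0.992) among 16800 genes. FAUP4 is a pseudogene, whose reads may be shared with its parent gene. That of BCL2 was most like ZNF678 (0.965), OIP5-AS1 (0.962) and AKAP7 (0.954). These are descriptions over 12 points that share line, treatment and sequencing depth.

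Several members share sequence space with other annotated genes (GENCODE release 44, GRCh38). BCL2L2 (chromosome 14, 23298790 to 23311751, plus strand) shares exons with the read-through gene BCL2L2-PABPN1 on the same strand, which had 1 to 5 counts per sample. BCL2L2 also overlaps exons of HOMEZ and PPP1R3E on the opposite strand. PPP1R3E had 27 to 55 counts in DU-145 and 88 to 199 in LNCaP-AI samples. MCL1 (chromosome 1, 150560895 to 150579738, minus strand) overlaps exons of ADAMTSL4-AS1 on its strand (1 to 9 counts) and ADAMTSL4 on the other. BCL2L1, BAK1, BCL2L11 and BMF overlap exons of genes on the opposite strand, the most abundant being MIR4435-2HG at BCL2L11 (159 to 416 counts per sample). The library kit keeps strand, but the counting setting is not given in the sources used here. BCL2A1 (chromosome 15, 79960892 to 79971196, minus strand) and PMAIP1 (chromosome 18, 59899996 to 59904305, plus strand) overlap no other annotated gene.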

How the data were processed

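Raw read counts per gene for 12 samples were used as the authors deposited them, with no normalization. Per the labels and the study's methods, TruSeq Stranded mRNA libraries were sequenced and aligned with STAR. The submitters' processing notes name CASAVA 1.8.2, STAR 2.7.0, DESeq2 1.24.0 and the build GRCh38.p7. The tool and strand setting that counted reads on genes are not given in the sources used here. Of 58037 identifiers, 56948 were matched to a symbol. Total counts of 10423437 to 26961777 per sample set the precision, and 3 counts per library were taken as the floor; without molecular identifiers this covers counting error only.

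A gene was tested when 3 or more of the fitted samples had 10 or more counts. Tests were run with edgeR 4.0.16 in R 4.3.3 (TMM, glmQLFit and glmQLFTest), with p-values adjusted by Benjamini-Hochberg over all genes tested, and called at an adjusted p under 0.05. Each line was fitted alone for DOX against vehicle, the vehicle samples of both lines for the baseline, and all samples for the interaction. The vehicle samples serve both the baseline and the DOX comparisons. The standard error of a log2 fold change was computed from its F statistic. CPM is TMM-normalized, per-kilobase levels use the exon length of GENCODE release 44, and log2 ratios add 0.5 to each count. Alternatives were DESeq2 1.42.0, its size factors, upper-quartile normalization, no filter, the replicate number as a block, all samples in a single fit, a covariate for how the LNCaP-AI samples divided, and leaving out each sample. The steps were tested on simulated counts.

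The members and lists were chosen with earlier results of these data known. The genes named are all members, MUC1, PEG10, every tested gene of the other BCL2 family list, of each further list up to 3 called genes per line and direction, taken by smallest adjusted p, and for the member with the largest change in each line the 3 genes with the highest Pearson r. Genes named outside this rule (CD44, the marker genes and those whose DOX effect differed between the lines) were chosen after their values were seen. Values of some genes that the rule names are not reported here. Promoter windows come from RefSeq (GRCh38.p14), with 8 of 10 members matched in 14 windows.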

Additional observations from a re-analysis of the deposited data

Results flagged for a closer look

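Of the members and of the listed genes around them, 5 had a DOX effect that differed between the lines in the edgeR interaction test, beside MUC1. They were 0 of 9 tested members, 1 of 10 other family genes and 1 of 10 death receptor genes. The mitochondrial list had 2 of 16 and the list of regulators 1 of 10. These counts lie near the 9.18% called over all 16800 tested genes. BNIP3 was at 185.6 to 207.2 CPM with vehicle and 159.1 to 165.6 with DOX in DU-145 cells, and at 71.6 to 105.4 with vehicle and 119.5 to 157.7 with DOX in LNCaP-AI cells, so that its log2 fold changes differed by 0.937 (SE 0.191, adjusted p = 0.0142). TNFRSF10A was higher with DOX in all samples of both lines and less so in LNCaP-AI cells (-0.68, SE 0.0961, adjusted p = 0.0027). BIRC5 was lower in all DOX samples of both lines and more so in LNCaP-AI cells (-0.731, SE 0.16, adjusted p = 0.0199). BIRC6, an inhibitor of apoptosis, differed by -0.466 (SE 0.103, adjusted p = 0.0202) and HUWE1 by -0.541 (SE 0.121, adjusted p = 0.0212), both higher with DOX in DU-145 and not called in LNCaP-AI cells. MUC1 differed by 1.946 (SE 0.405, adjusted p = 0.0241), a value that rests on 3 counts in each DU-145 DOX sample. HTRA2 was higher in every DU-145 DOX sample and lower in every LNCaP-AI DOX sample, but the difference of -0.46 did not pass the test (adjusted p = 0.103). It was picked by a search of the listed genes for such opposite directions, and edgeR called it in neither line (adjusted p = 0.0552 and 0.293). Groups did not overlap for 57.3% of all tested genes in DU-145 and 38.1% in LNCaP-AI cells. Groups of 3 are too small for a search for single outlying samples.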

How the results depend on the processing

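At baseline, each of the 13 alternatives called 8 or 9 members, and 7762 to 11212 genes of all (10180 reported). The reported DU-145 fit called 4 members. A replicate block also gave 4, a fit shared by all 12 samples gave 2 (BCL2L1 and PMAIP1 were lost), and 2 to 6 without single samples (2 without vehicle 1, 6 without vehicle 2). In LNCaP-AI cells 1 member was called. It became 2 with DESeq2, 2 with its size factors in edgeR, 2 in the fit of all 12 samples, 6 with a covariate for the division of the samples (which was read from the same counts), 0 without a filter on low counts, and 0 to 4 without single samples (4 without DOX 1). The replicate numbers do not pair the samples: same-numbered deviations correlated at 0.127, -0.091 and 0.076 in DU-145 and at -0.94, -0.812 and -0.84 in LNCaP-AI cells. With the replicate block, 0 members and 0 genes of all were called in LNCaP-AI cells. The interaction called 0 members with the block, 1 with upper-quartile normalization (BMF) and 0 to 3 without single samples (3 without LNCaP-AI DOX 1). Genes called over the whole table ranged from 4083 to 7115 in DU-145 cells (7033 reported), from 0 to 6271 in LNCaP-AI cells (2043 reported), and from 52 to 3471 for the interaction (1543 reported).

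Directions turned only for members near 0 that were not called. The BID interaction (-0.01) became 0.015 with DESeq2, 0.012 with its size factors and 0.047 with upper-quartile normalization, and ran from -0.075 to 0.067 without single samples. The BCL2L1 interaction (-0.04) became 0.015 with upper-quartile normalization and ran from -0.186 to 0.106 without single samples. In LNCaP-AI cells, BID was -0.009 without a filter and -0.025 to 0.108 without single samples, and BCL2L1 ran from -0.026 to 0.247. BMF in DU-145 cells ran from -0.04 to 0.095. The cause of these changes was not tested. With 3 samples a group, BCL2A1 and BCL2 in DU-145 vehicle samples rest on only 9 to 45 counts. The largest SE of a member for DOX within a line was that of PMAIP1 in LNCaP-AI cells (0.411). In DU-145 cells it was 0.258 for BCL2 and 0.222 for BCL2A1.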
